A study of Arabidopsis thaliana with 12 samples.

Results

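Nucleotide, histidine and thiamin synthesis were followed through 4 genes of Arabidopsis thaliana: AT3G06200, a guanylate kinase gene, AT2G44530, a phosphoribosyl diphosphate synthase gene, AT-HF (AT4G26900, also HISN4), of histidine synthesis, and THIC (AT2G29630), of thiamin synthesis. They were picked by name from the 690 probes of the array that name exactly 1 gene with a locus, out of 3439 probes, and each has 1 such probe. The picking was done with the difference between the groups already known. Their differences between the groups are therefore given as a description and carry no test.

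RNA abundance was measured on arrays in 12 samples of total RNA from wild-type plants of the ecotype Wassilevskija. In 6 samples the plants had been treated with water. In the other 6 they had spent 30 min in MS, a plant salt medium, with 60 mM sucrose, so salts and sucrose differ together from water. The labels name no tissue, growth stage or water duration, and nothing in them tells separate cultures from repeat samples, so the spread within a group may be technical. Of 23 marker genes of green tissue, root and seed, 0 were on a probe naming 1 gene, so the tissue could not be checked. In RNA from plant material of unnamed tissue, fewer cells of a type and less RNA per cell cannot be told apart.

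The 4 genes meet at phosphoribosyl diphosphate (PRPP), the activated sugar from which purine nucleotides and histidine are built. PRPP synthases make it from ribose 5-phosphate and ATP. Guanylate kinase acts at the other end of purine synthesis, where it phosphorylates GMP to GDP on the way to GTP. HISN4 is the plastid imidazole glycerol phosphate synthase: it closes the imidazole ring of histidine and releases an intermediate that returns to purine synthesis. THIC takes another purine intermediate, aminoimidazole ribotide, and rearranges it into the pyrimidine part of thiamin, the precursor of the cofactor thiamin diphosphate.

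The arrays of the groups differed as a whole. The median intensity over all probes, on the deposited scale from 0 to 100, lay between 0.171 and 0.188 in the water samples and between 0.422 and 0.459 in the sucrose medium samples. Each gene is therefore given as the deposited intensity, as its position among the 3439 probes of its own array, which no rescaling of an array can alter, and as a log2 intensity after quantile normalisation, which gives all arrays 1 distribution. Samples 1 and 2, 3 and 4, and 5 and 6 of a group lay closest to each other. Across 2805 probes their Spearman correlations were at least 0.957 in water and 0.979 in sucrose medium, and those of all other pairs within a group at most 0.948 and 0.959. Whether these sets hold repeat measurements of the same RNA is not stated. The number of arrays limits the precision, and the SEs below take the samples of a group as independent.

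AT3G06200 and AT-HF were much brighter in sucrose medium than in water by every measure, while AT2G44530 and THIC lost ground to the other probes of the array. After quantile normalisation AT3G06200 was 14.5-fold and AT-HF 6.92-fold higher in sucrose medium, and AT2G44530 was 1.56-fold and THIC 1.79-fold lower. On the deposited scale AT2G44530 was higher in sucrose medium and THIC overlapped between the groups, on arrays whose medians were higher in sucrose medium. Across the array 64.4% of 2915 tested probes differed between the groups after this normalisation, 31.5% toward higher and 32.9% toward lower values in sucrose medium (limma, Benjamini-Hochberg adjusted p under 0.05), so a direction alone does not single out any of the 4 genes. Without scaling 73.9% were higher and 7.75% lower.

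The guanylate kinase gene AT3G06200 had deposited intensities from 0.794 to 1.01 in water, with a median of 0.874. In sucrose medium they ran from 11.3 to 16.2, with a median of 12.4. The groups were far apart, with every sucrose medium sample above every water sample, and samples 5 and 6 were the highest of sucrose medium. On the deposited scale 63.6% of tested probes had all sucrose medium samples above all water samples. In same-numbered samples the ratio of sucrose medium to water lay between 11.7 and 18.7. The probe stood above 87.7% to 89.9% of the probes of each water array and above 99.0% to 99.3% of the probes of each sucrose medium array, so it was bright in water and among the brightest in sucrose medium. Higher positions in sucrose medium without overlap of the groups were seen in 19.9% of tested probes. The log2 intensity of AT3G06200 went from 0.09 ± 0.09 to 3.94 ± 0.21 (SD, n = 6 each), a difference of 3.85 ± 0.10 (SE). That difference ranked 2 from the top among all 2915 probes tested and 1 among the 564 probes of single genes that were above 0 in every sample; with median centring or no scaling it ranked 11 and 3.

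The histidine gene AT-HF lay near the middle of the array in water and near its top in sucrose medium. Deposited intensities ran from 0.165 to 0.207 in water, with a median of 0.188, and from 1.79 to 2.45 in sucrose medium, with a median of 2.04. Samples 1 and 2 were the highest of sucrose medium and samples 3 and 4 the lowest. Again the groups did not overlap, as for 63.6% of tested probes on this scale. The ratio in same-numbered samples was 9.72 to 13.4. Relative to its array the probe moved from above 48.5% to 54.9% of the probes to above 93.5% to 95.6% of them. That was the widest move in position of the 4 genes, and 19.9% of tested probes moved up in position without overlap of the groups. The log2 intensity was -1.78 ± 0.09 in water and 1.01 ± 0.20 in sucrose medium (SD, n = 6 each), and the difference of 2.79 ± 0.10 (SE) ranked 12 of 2915, and 28 with median centring or no scaling.

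**Figure D1:**
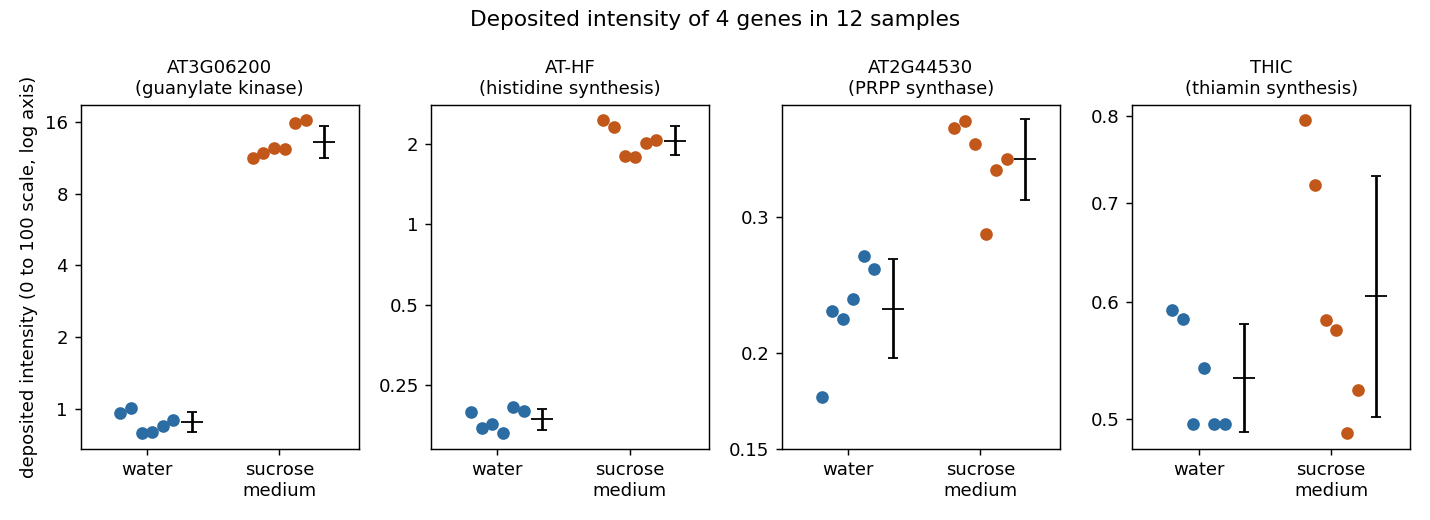
Deposited intensity (vertical log axis, a separate range in each panel) of the 4 genes in each of 6 water and 6 sucrose medium samples, drawn from replicate 1 at the left to 6 at the right; bars give the mean and SD of the log2 intensity. AT3G06200 and AT-HF are separated by a wide gap, AT2G44530 by a narrow one (0.267 against 0.285), and THIC overlaps.

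AT2G44530, which encodes a PRPP synthase, was brighter in sucrose medium on the deposited scale but gained less than most probes. Its intensities were 0.175 to 0.267 in water (median 0.230) and 0.285 to 0.400 in sucrose medium (median 0.365). The groups did not overlap, although the lowest sucrose medium sample, replicate 4, was close to the highest water sample. For comparison, 63.6% of tested probes had all sucrose medium samples above all water samples on this scale. Within its array the probe moved the other way, from above 50.7% to 62.5% of the probes in water to above 34.0% to 47.9% in sucrose medium. Lower positions without overlap of the groups were seen in 23.9% of tested probes. The log2 intensity of AT2G44530 after normalisation was -1.51 ± 0.17 in water and -2.15 ± 0.21 in sucrose medium (SD, n = 6 each), a difference of -0.64 ± 0.11 (SE). Water replicate 1 lay apart from the other water samples, at -1.85.

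THIC, whose product is the entry enzyme to the pyrimidine part of thiamin, changed least on the deposited scale. Its intensities ran from 0.497 to 0.593 in water (median 0.519) and from 0.490 to 0.795 in sucrose medium (median 0.579). The groups overlapped: sucrose medium samples 1 and 2 were above all water samples, and sample 5 was below all of them. Same-numbered ratios ran from 0.986 to 1.34 and were above 1 in 5 of 6 pairs. In position within the array the groups did not overlap, with THIC above 79.0% to 83.3% of the probes in water and above 52.9% to 74.6% in sucrose medium. A separation of this kind was seen in 23.9% of tested probes toward lower positions and in 19.9% toward higher ones. The log2 intensity was -0.48 ± 0.11 in water and -1.32 ± 0.34 in sucrose medium (SD, n = 6 each), a difference of -0.84 ± 0.14 (SE).

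**Figure D2:**
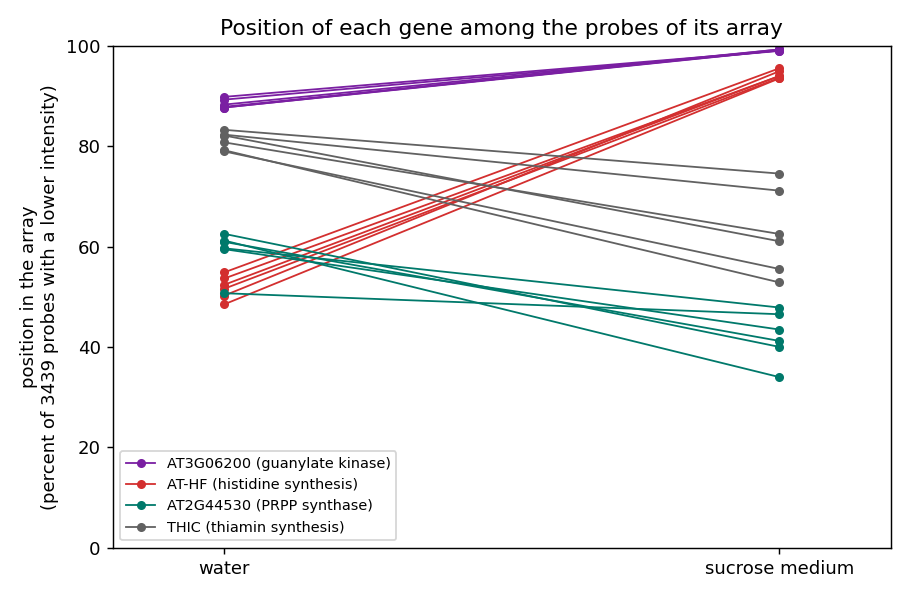
Position of each gene in its array (vertical axis, percent of 3439 probes with a lower intensity) in water and sucrose medium, with a line joining same-numbered samples. AT-HF moves from between 48.5% and 54.9% to above 93.5%, AT3G06200 from above 87.7% to above 99.0%, and all lines of AT2G44530 and THIC slope down.

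How far the genes lay from the bulk of the array depended on the scaling, while the side of the median probe on which each gene lay did not. Without scaling the median difference of all tested probes was 1.09 on the log2 scale, and AT3G06200, AT-HF, AT2G44530 and THIC were at 3.90, 3.47, 0.65 and 0.18, that is 2.81 and 2.38 above that median and 0.44 and 0.91 below it. With each array centred on its median the 4 differences were 2.64, 2.21, -0.61 and -1.08, beside a median of -0.17 over all probes. With cyclic loess, which fits the difference between arrays as a curve of brightness, they were 4.19, 2.55, -0.71 and -0.82. AT2G44530 and THIC were thus below the median probe with quantile normalisation, cyclic loess, median centring and no scaling alike. Their differences were above 0 only without scaling, where the median probe was itself above 0. Centring shifts all probes of an array alike, so it leaves the place of a gene relative to the median probe as it is without scaling.

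**Figure D3:**
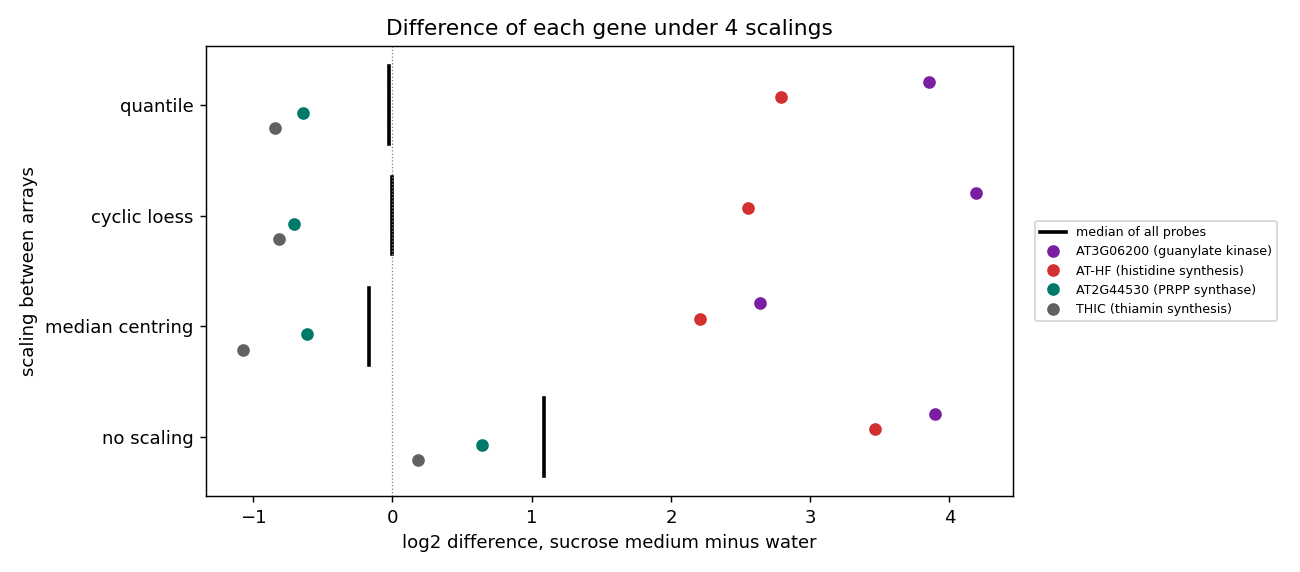
Log2 difference, sucrose medium minus water (horizontal axis), of the 4 genes under 4 scalings between arrays (rows); the black bar is the median of 2915 tested probes. AT3G06200 and AT-HF lie to the right of the bar and AT2G44530 and THIC to its left in each row.

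Without scaling and with median centring the differences over the array went with brightness. With the tested probes ranked by brightness into 4 classes of equal size, the median difference without scaling was 1.35 in the dimmest class, then 1.40 and 1.21, and 0.18 in the brightest class. With median centring the medians of these classes were 0.09, 0.14, -0.05 and -1.08. After quantile normalisation they were -0.02, 0.11, 0.09 and -0.19. By mean over all samples AT3G06200 was brighter than 96.3% of tested probes and AT-HF brighter than 75.2%, both in the brightest class, THIC brighter than 72.2% and AT2G44530 brighter than 42.7%. Since that mean holds the sucrose medium samples, the high values of AT3G06200 and AT-HF there enter their class; AT-HF lay near the middle of the array in water. The part of brightness in the differences of the 4 genes was not tested.

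Within the groups the 4 genes did not vary alike. In sucrose medium the SD of THIC was 0.34 on the normalised log2 scale, against a median of 0.20 over all tested probes, and its set means spanned 0.75 with samples of a set at most 0.15 apart. AT3G06200 spanned 0.44 between sets and at most 0.09 within them. In that group AT3G06200 was highest in samples 5 and 6 and lowest in samples 1 and 2, whereas THIC was highest in samples 1 and 2 and lowest in samples 5 and 6. In water the set means of AT3G06200 and THIC spanned only 0.18 and 0.23, and both were highest in samples 1 and 2. AT-HF was highest in samples 1 and 2 of sucrose medium, as THIC was. AT2G44530 differed within sets by up to 0.36 in water and 0.43 in sucrose medium, more than its set means spanned (0.27 and 0.34).

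**Figure D4:**
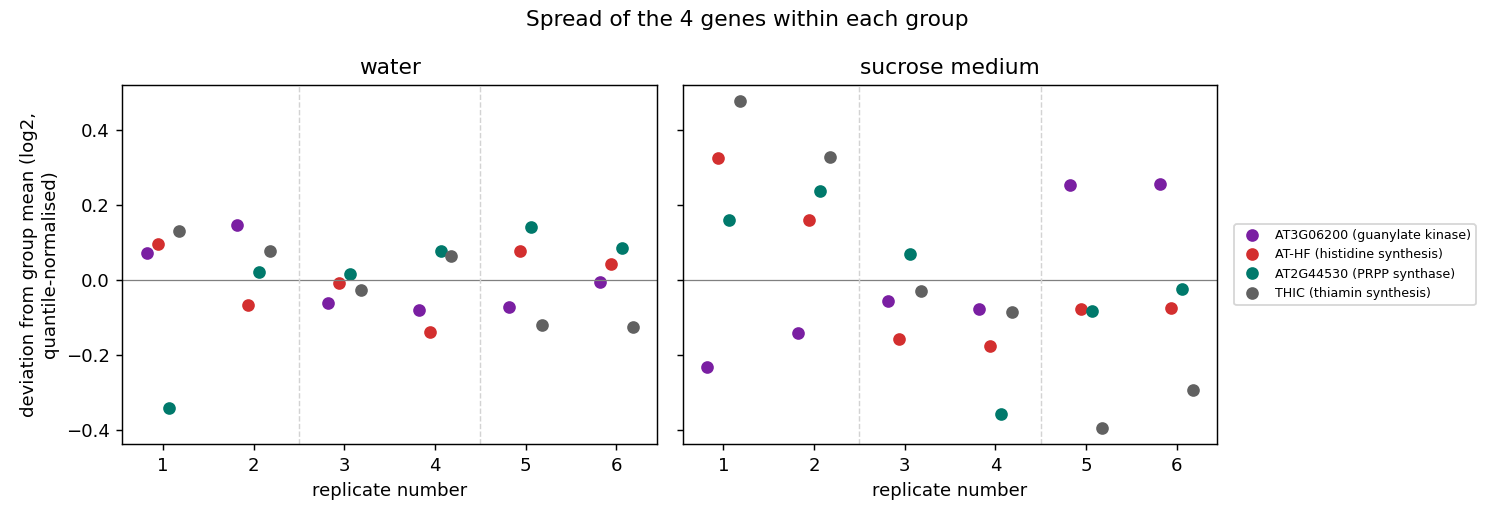
Deviation of each gene from its group mean (vertical axis, log2 after quantile normalisation) by replicate number, in water and in sucrose medium; dashed lines separate samples 1 and 2, 3 and 4, and 5 and 6. In sucrose medium THIC is high in samples 1 and 2 and low in samples 5 and 6, and AT3G06200 is the reverse.

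Few other genes of these pathways could be read on the array. Of 95 other loci on 9 lists of nucleotide, histidine, thiamin and pentose phosphate metabolism, 5 were on probes naming 1 gene, and 2 of those could be tested. Of these 2, 0 were higher and 1 was lower after quantile normalisation, beside 31.5% higher and 32.9% lower over all probes tested. The count therefore does not set them apart. The lower gene was AT2G35390, on the list of PRPP synthases with AT2G44530. The lists were written from background knowledge because the reference table gives no function for this locus. Its deposited intensities ran from 0.160 to 0.288 in water (median 0.220) and from 0.290 to 0.438 in sucrose medium (median 0.372). It was higher in sucrose medium without overlap, as were AT2G44530 and 63.6% of tested probes. After quantile normalisation it fell from -1.56 ± 0.30 to -2.08 ± 0.26 (SD, n = 6 each; difference -0.52 ± 0.16, SE; limma, adjusted p = 0.011 over all probes), with overlapping groups. Without scaling it was at 0.76 and passed the threshold as higher (limma, adjusted p = 0.000276), though below the median of all probes. The direction of its call thus depended on the scaling. With the sets of samples averaged the adjusted p from limma was 0.0795.

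The second tested gene, AT1G31220 on the purine synthesis list, ran from 0.230 to 0.289 in water (median 0.283) and from 0.557 to 0.780 in sucrose medium (median 0.710) on the deposited scale. It had all sucrose medium samples above all water samples, as had 63.6% of tested probes. Its normalised difference was 0.22 ± 0.11 (SE; limma, adjusted p = 0.106), and it passed the threshold without sucrose replicate 6 (0.31, adjusted p = 0.00841), the sample in which it was lowest. UPP (AT3G53900), the uracil phosphoribosyltransferase that uses PRPP to salvage uracil, was listed at 0 in 11 of 12 samples. AT1G12230 was above 0 in 2 water samples only, at 0.0416 and 0.017, and AT5G44520 was listed at 0 throughout; both are on the pentose phosphate list. A further 6 list genes were only on probes naming several genes and were not assigned values.

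**Figure D5:**
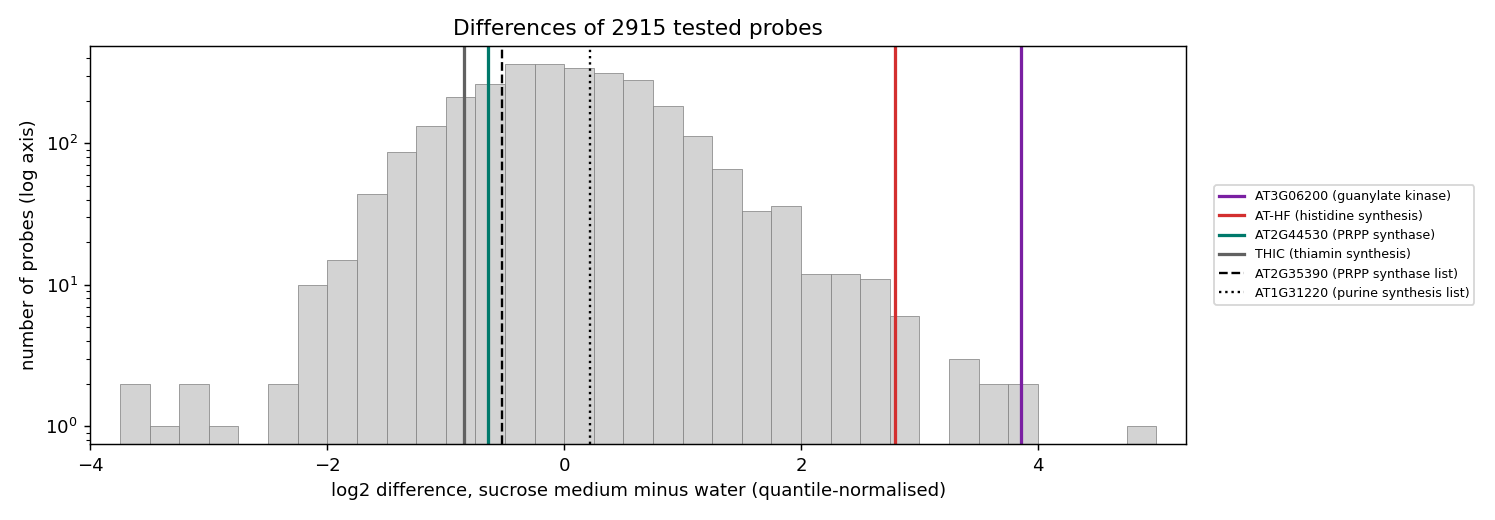
Number of tested probes (vertical log axis) by log2 difference, sucrose medium minus water, after quantile normalisation (horizontal axis); coloured lines mark the 4 genes and black lines AT2G35390 and AT1G31220. AT3G06200 at 3.85 and AT-HF at 2.79 stand in the sparse right tail, and THIC at -0.84, AT2G44530 at -0.64 and AT2G35390 at -0.52 in the left shoulder.

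Genes with the most similar course over the 12 samples were sought by the root-mean-square difference of mean-centred log2 profiles, among the 563 other single genes above 0 in every sample. That measure holds the difference between the groups, which was known when the members were picked. The nearest genes are therefore largely those with a similar difference, and nearness is no evidence of a shared course within the groups. AT4G18180 was nearest to AT3G06200 at 0.257, followed by AT1G76450, a PsbP-domain gene, at 0.297 and AT1G12800, an S1-domain gene, at 0.522, against a median of 1.92 over all candidates. Their differences between the groups were 3.56, 3.41 and 2.85, beside 3.85 for AT3G06200. AT2G36480, AT1G12800 and AT5G06010 were nearest to AT-HF at 0.232, 0.305 and 0.375 (median 1.40). AT3G06200 and AT-HF were themselves 0.586 apart, while their deviations from the group means had a Pearson correlation of -0.45 over the 12 samples. Nearest to AT2G44530 were AT2G23070 (CKA4, a catalytic subunit of the protein kinase CK2), AT3G45770 and AT4G24840, at 0.155, 0.158 and 0.166 (median 0.521). AT2G15440, LPA19 (AT1G05385, LOW PSII ACCUMULATION 19) and AT2G38070 were nearest to THIC at 0.129, 0.132 and 0.169 (median 0.605). AT2G44530 and THIC were 0.263 apart, and the correlation of their deviations was 0.32. LPA19 went from -1.57 ± 0.11 in water to -2.49 ± 0.22 in sucrose medium (log2, SD, n = 6 each).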

How the data were processed

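The authors deposited 1 linear intensity per probe and sample, from 0 to 100; the background correction and scaling behind it are not described in the sources used here. Groups and replicate numbers came from the sample titles. Values of 0 were treated as missing. Log2 intensities were quantile normalised, and the 2915 probes above 0 in at least 4 samples in each group were tested by a two-sided limma model without a block (version 3.58.1, R 4.3.3), with Benjamini-Hochberg adjustment and a threshold of 0.05. Probe genes came from the platform annotation, updated to TAIR10.1: 692 probes named 1 gene (690 matched a locus), 870 several and 1877 none. Figures used matplotlib 3.10.9 in Python 3.11.15.

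The members, pathway lists and alternatives were chosen with earlier results of these data known. Named genes are the members, every pathway gene on a probe naming 1 gene (at most 12), and the 3 nearest profiles per member. Same-numbered samples of the groups deviated together, with correlations of 0.280 to 0.450 in all 6 pairs across 2805 probes, against -0.290 to 0.282 for samples with other numbers, a range that overlaps it slightly. The labels share the numbers between the groups but state no pairing. Samples with other numbers include those of the same set, so these correlations cannot tell number pairs from shared sets. The fit was tested on simulated data. Alternatives were other scalings, handling of zeros and dim probes, the replicate block, averaged sets and leaving out each sample. No sequence is shown.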

Additional observations from a re-analysis of the deposited data

Results flagged for a closer look

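Among the 6 tested pathway genes, 4 of them the chosen ones, 1 sample stood far from the rest of its group on the normalised scale. AT2G44530 in water replicate 1 had a normalised log2 intensity of -1.85, while the other 5 water samples lay between -1.49 and -1.37, and the gap took up 0.744 of the range of the group. The 95% critical value of Dixon's test, which this gap exceeds, is passed by chance in about 1 in 20 groups, and 12 groups were examined on this scale and on the deposited one. On the deposited scale the same sample, at 0.175 beside 0.221 to 0.267 in the other 5, did not exceed that critical value. Over all settings that left out 1 sample, the difference of AT2G44530 stayed between -0.70 and -0.57.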

How the results depend on the processing

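Without scaling 2154 probes were higher and 226 lower, so 90.5% of those past the threshold were higher, against 48.9% of 1878 (918 higher and 960 lower) after quantile normalisation. Also without scaling AT2G44530 was at 0.65, THIC at 0.18 and AT2G35390 at 0.76, above 0, AT-HF was at 3.47, and 2 other pathway genes passed, AT1G31220 at 1.37. Median centring gave 2.64 for AT3G06200 and 2.21 for AT-HF, cyclic loess 4.19 and 2.55, and adding 0.05 before log2 2.56 for AT-HF. With the sets of samples averaged 0 other pathway genes passed by limma, and 1366 probes did. The SE of the difference was then 0.15 for AT3G06200, AT-HF and AT2G44530 and 0.21 for THIC. Leaving out each sample gave 1794 to 1845 probes (864 to 903 higher, 912 to 965 lower), 3.79 to 3.94 for AT3G06200, 2.71 to 2.88 for AT-HF, -0.70 to -0.57 for AT2G44530, -0.95 to -0.78 for THIC and 1 to 2 other pathway genes. With the replicate block, which pairs same-numbered samples, 2024 probes passed, and the calls of AT2G35390 (adjusted p = 0.000639) and AT1G31220 (adjusted p = 0.113; limma) did not change. The causes were not tested.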
